A study of Mus musculus with 9 samples.

Results

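The proteasome genes of mouse were taken by name from RNA-seq of a breast carcinoma line in which Med1 had been knocked down. Every protein-coding gene whose symbol begins with Psma, Psmb, Psmc, Psmd, Psme, Psmf or Psmg and a digit was included, which gave 50 genes of the 55335 listed in each library. Among them, 31 encode the constitutive subunits of the 20S core and the 19S regulatory particle, and 5 (Psmb8, Psmb9, Psmb10, Psme1 and Psme2) encode the interferon-inducible catalytic subunits and the PA28 alpha and beta activator. The cells were D2A1-d, maintained in serum-containing medium with no treatment listed. The NTC group carried a non-targeting control hairpin (genotype WT), and the groups shMed1 #2 and shMed1 #4 carried either of 2 hairpins against Med1 (genotype Med1 Knockdown), with 3 samples a group. All 9 cultures were transduced with a hairpin, and total RNA from each was sequenced. The labels call the samples biological replicates without saying whether transductions were separate, so each p-value reflects the spread among these samples alone, and that spread may be technical.

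The proteasome degrades proteins tagged with ubiquitin. Its 20S core is a barrel of alpha and beta rings, whose beta rings carry the catalytic sites, and the 19S particle caps the barrel, binds ubiquitinated proteins, unfolds them with a ring of ATPases and feeds them in. In cells exposed to interferon the catalytic subunits Psmb5, Psmb6 and Psmb7 can be replaced by Psmb8, Psmb9 and Psmb10, which makes the immunoproteasome, a form known for producing peptides for display on MHC class I, and PA28 caps the core in place of 19S.

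Library totals ran from 8123918 to 8879982 counts, and 3 counts corresponded to 0.338 to 0.369 CPM (counts relative to the TMM-scaled library size). Med1 stood at 79.8 to 87.5 CPM in NTC, at 22.1 to 25.2 CPM with shMed1 #2 and at 25.02 to 26.6 CPM with shMed1 #4. The 50 genes together took 0.615 to 0.627% of all counts in NTC, 0.664 to 0.678% with shMed1 #2 and 0.626 to 0.651% with shMed1 #4. Leukocyte markers, which would point to cells that hold immunoproteasome without stimulation, summed to 17.8 to 20.3 CPM in NTC, 14.8 to 17.997 CPM with shMed1 #2 and 14.6 to 16.5 CPM with shMed1 #4. Of these 12 markers, Cd3e, Itgam, Adgre1 and Tyrobp were at 0 in all 9 libraries, which allows up to 3 counts a library, and Csf1r made up most of the sum. The 4 mesenchymal markers summed to 4008 to 4180 CPM in NTC, 4588 to 4798 CPM with shMed1 #2 and 4777 to 4994 CPM with shMed1 #4. Vim and Fn1 made up most of that sum, and the 4 genes moved apart. With shMed1 #2, Vim and Cdh2 rose (log2 fold changes 0.57 and 0.63) and Fn1 and Col1a1 fell (-0.20 and -1.61). With shMed1 #4, Vim and Fn1 rose (0.38 and 0.11), Cdh2 fell (-0.96) and Col1a1, at -0.24, was not called. The 8 epithelial markers summed to 57.0 to 58.4, 19.8 to 23.2 and 41.8 to 52.2 CPM in the same order, with Epcam at 0 in every library and Cdh1 near 0. The part of these marker differences in the results below was not tested.

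In NTC cells the inducible catalytic genes stood below the constitutive genes. Per kilobase of the principal transcript, the 31 constitutive genes ranged from 30.7 CPM (Psma2) to 182 CPM (Psma7) with a median of 110.3 CPM, a 5.92-fold span. Psmb8 stood at 0.827 and Psmb9 at 1.76 CPM per kilobase, while Psmb10 reached 27.3 CPM per kilobase, just under the lowest constitutive gene. Among the activators, Psme1 was at 46.0, Psme2 at 66.8 and Psme3 at 83.7 CPM per kilobase. The assembly chaperones, which help the subunits come together and leave the finished particle, ran from 4.74 (Psmg3) to 35.3 CPM per kilobase (Psmg1). Over the 31 constitutive genes, the median replicate coefficient of variation was 3.98% in NTC, 3.59% with shMed1 #2 and 4.87% with shMed1 #4. In bulk samples, fewer cells that express a gene and less of its RNA per cell cannot be told apart.

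**Figure D1:**
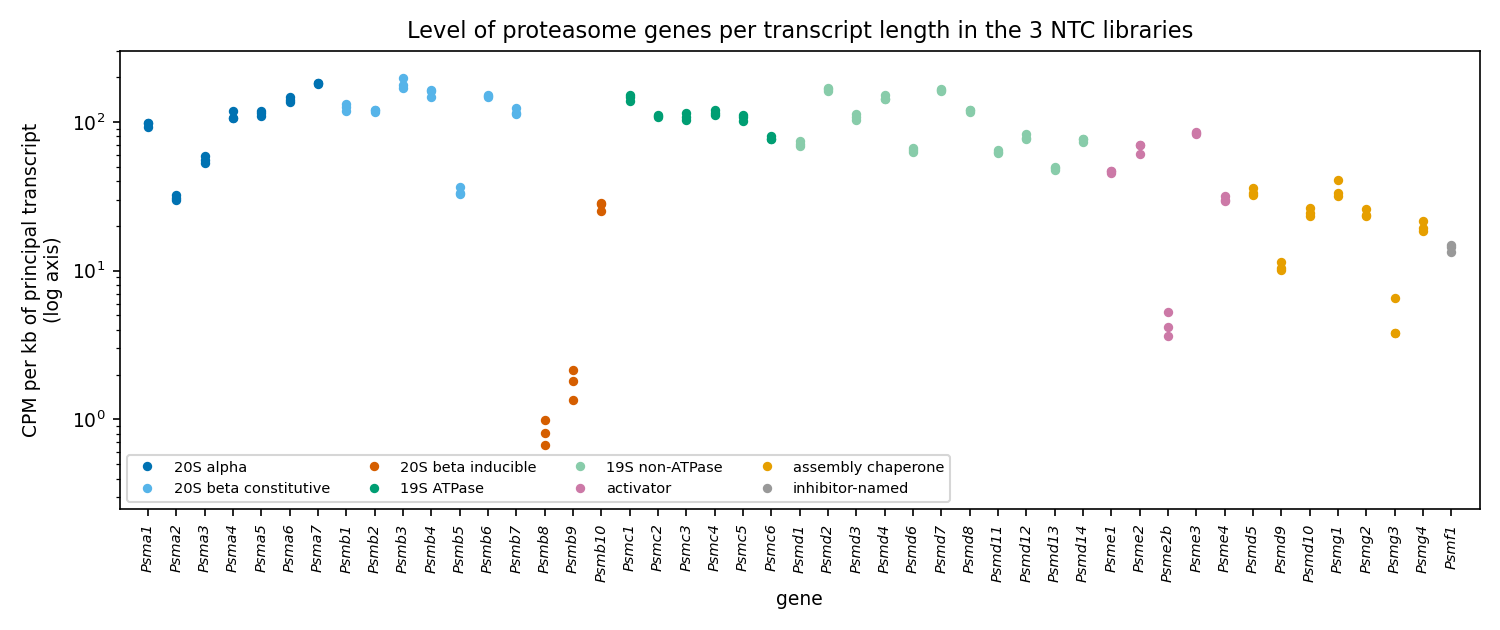
Level of each expressed proteasome gene in NTC, in CPM per kilobase of principal transcript on a log axis. Each point is 1 of the 3 NTC libraries and colours mark the role; Psmb8 and Psmb9 lie below all other genes and Psmb10 just under the lowest constitutive gene, Psma2.

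Of the 50 genes, 47 had enough counts to be tested. Psma8, a core subunit of the testis, had 0 counts in all 9 libraries. Psmb11, the catalytic subunit of the thymic cortex, had 1 count in 1 library with shMed1 #4 and 0 in the others. Psmb8 was below the filter, at 3 to 14 counts a library.

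With shMed1 #2, 23 of the 47 tested genes rose and 2 fell, beside 21.8% of all 13611 tested genes called higher and 21.9% called lower (43.7% in either direction). With shMed1 #4, 11 rose and 4 fell, beside 14% higher and 14.1% lower (28.2% in either direction). The median log2 fold change over the 47 was 0.11 with shMed1 #2 and 0.07 with shMed1 #4, against -0.0035 and 0.00086 over all tested genes. Both hairpin comparisons share the NTC libraries, so their agreement is not independent. Called higher with each hairpin were 11 genes (10.4% of all tested genes), namely Psma4, Psmb7, Psmc2, Psmc3, Psmc6, Psmd5, Psmd6, Psmd8, Psmd12, Psme3 and Psmc3ip, and only Psme2 was called lower with each (10.1% of all tested genes). The counts moved with the scaling. With library size alone 12 genes rose and 4 fell with shMed1 #2, and 8 rose and 2 fell with each hairpin. Over all 13611 tested genes, that setting gave 2384 higher and 3598 lower with shMed1 #2, beside 2964 and 2983 with TMM scaling. Leaving out replicate 1 or replicate 2 of shMed1 #4 left 7 genes higher with that hairpin and 7 higher with each. Without its replicate 3 there were 13 and 12. Over all tested genes, 1911 were called higher with shMed1 #4 in the full fit. Without its replicates 1, 2 and 3 there were 1613, 1625 and 1895.

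The 31 constitutive genes, those of the core and 19S outside the inducible set, make up most of the 47 tested. With shMed1 #2, 18 of the 31 rose and 0 fell (median log2 fold change 0.14), and with shMed1 #4, 8 rose and 1 fell (median 0.07). These genes are abundant, and 30 of the 31 averaged at least 6 log2 CPM. Over all 3885 genes above that level, 40.8% rose and 20.4% fell with shMed1 #2, 27.3% rose and 16.3% fell with shMed1 #4, and 22.2% rose with each. Beside these, the constitutive share was larger with shMed1 #2 (58.1%), a difference that was not tested, and near that of abundant genes with shMed1 #4 (25.8%) and with each hairpin (8 of 31, 25.8%).

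Of the inducible genes and PA28 alpha and beta, none of the 4 tested (Psmb9, Psmb10, Psme1 and Psme2) rose in any comparison with NTC. With shMed1 #2, 2 of them fell (Psme1 and Psme2), and with shMed1 #4, 3 fell (Psmb9, Psmb10 and Psme2). Of all tested genes, 21.9% were called lower with shMed1 #2 and 14.1% with shMed1 #4. For the mean of both hairpins all 4 fell, beside 20.2% of all tested genes called lower and 19.7% called higher (39.9% in either direction). Over the 47 tested genes, the same mean had 18 higher and 4 lower, so these 4 are the only members that fell in it.

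Psmb8 (ENSMUSG00000024338.15, chromosome 17, 34197721 to 34201454, plus strand, GRCm38), which takes the place of the chymotrypsin-like subunit Psmb5, stood at 1.09, 1.33 and 1.62 CPM in the NTC libraries, 1.03, 0.929 and 0.807 CPM under shMed1 #2 and 0.582, 0.842 and 0.348 CPM under shMed1 #4. All 6 knockdown libraries were below the lowest NTC library, at 3 to 9 counts against 9 to 14. Fitted without the filter, its log2 fold change was -0.54 with shMed1 #2 (adjusted p = 0.497) and -1.18 with shMed1 #4 (adjusted p = 0.0992). For the mean of both hairpins it was -0.86 (adjusted p = 0.126). None of these passed edgeR's quasi-likelihood test. Its exons overlap those of Gm20496 on the other strand by 498 bases, and the strand setting of the counts is unknown here.

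Psmb9 (ENSMUSG00000096727.3, chromosome 17, 34181987 to 34187764, minus strand), which replaces the caspase-like subunit Psmb6, stood at 1.82, 2.89 and 2.43 CPM in the NTC libraries, 1.26, 2.44 and 1.04 CPM under shMed1 #2 and 0.698, 0.361 and 1.16 CPM under shMed1 #4. These values rest on 15 to 24 counts a library in NTC, 9 to 21 with shMed1 #2 and 3 to 10 with shMed1 #4. The shMed1 #4 libraries were all below NTC, whereas shMed1 #2 overlapped it through its replicate 2. The log2 fold change of Psmb9 was -1.66 (adjusted p = 0.000553, SE 0.426) with shMed1 #4 and -0.59 (adjusted p = 0.146, SE 0.337) with shMed1 #2, and only the first passed. Without replicate 2 of shMed1 #2 the latter became -1.04 and passed (adjusted p = 0.0292). Psmb9 shares 212 bases of exon with the opposite strand of Tap1, which fell with shMed1 #4 as well, so part of its counts may belong to that gene.

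Psmb10 (ENSMUSG00000031897.9, chromosome 8, 105935735 to 105938444, minus strand), which replaces the trypsin-like subunit Psmb7, stood at 33.2, 36.996 and 37.1 CPM in the NTC libraries, 34.9, 29.6 and 32.96 CPM under shMed1 #2 and 32.6, 26.2 and 26.2 CPM under shMed1 #4. With shMed1 #4 all libraries were under the lowest NTC value, and with shMed1 #2 the values overlapped NTC. Psmb10 fell with shMed1 #4 by a log2 fold change of -0.33 (adjusted p = 0.00214, SE 0.089). With shMed1 #2 its log2 fold change was -0.14 (95% interval -0.31 to 0.03, adjusted p = 0.198). For the mean of both hairpins it was -0.24 (adjusted p = 0.0084), a call lost without NTC replicate 2 (adjusted p = 0.0574) or NTC replicate 3 (adjusted p = 0.0570).

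Psme1 (ENSMUSG00000022216.17, chromosome 14, 55578123 to 55581529, plus strand), the alpha subunit of PA28, stood at 51.9, 50.01 and 51.6 CPM in the NTC libraries, 36.4, 34.4 and 36.1 CPM under shMed1 #2 and 48.3, 45.01 and 43.6 CPM under shMed1 #4. The 3 groups did not overlap: NTC was highest, shMed1 #4 between and shMed1 #2 lowest. The log2 fold change of Psme1 was -0.52 (adjusted p = 6.39e-09, SE 0.0742) with shMed1 #2 and -0.17 (adjusted p = 0.073, SE 0.0713) with shMed1 #4, where the test was narrowly missed. It passed with shMed1 #4 under upper quartile scaling (adjusted p = 0.0472), with library size alone (adjusted p = 0.0357) and without replicate 1 of shMed1 #4 (adjusted p = 0.0496). Between the hairpins it was 0.36 higher with shMed1 #4 on the log2 scale (adjusted p = 0.000112).

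Psme2 (ENSMUSG00000079197.10, chromosome 14, 55587441 to 55591113, minus strand), the beta subunit of PA28, stood at 58.1, 67.5 and 67.3 CPM in the NTC libraries, 48.2, 58.1 and 49.2 CPM under shMed1 #2 and 56.2, 53.3 and 59.7 CPM under shMed1 #4. All shMed1 #2 libraries were below NTC, the highest of them by a narrow margin, and 1 shMed1 #4 library lay inside the NTC range. The log2 fold change of Psme2 was -0.31 (adjusted p = 0.000146, SE 0.0702) with shMed1 #2 and -0.19 (adjusted p = 0.0325, SE 0.0694) with shMed1 #4. The second call was lost with DESeq2 (adjusted p = 0.118) and without NTC replicate 2 (adjusted p = 0.165), NTC replicate 3 (adjusted p = 0.154), shMed1 #4 replicate 1 (adjusted p = 0.0802) or shMed1 #4 replicate 2 (adjusted p = 0.157). Its transcript is 99.4% identical to that of the single-exon copy Psme2b over 794 aligned columns, so reads may be split between them. Psme2b stood at 3.03, 3.49 and 4.3998 CPM in the NTC libraries, 3.22, 3.599 and 2.77 CPM under shMed1 #2 and 3.96, 4.21 and 3.71 CPM under shMed1 #4, and none of its differences passed.

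Of the 3 constitutive counterparts only Psmb7 passed the test, and it rose with both hairpins. Psmb5 (ENSMUSG00000022193.7, chromosome 14, 54614119 to 54618022, minus strand), the chymotrypsin-like subunit, stood at 29.7, 29.3 and 32.8 CPM in the NTC libraries, 28.7, 34.02 and 33.8 CPM under shMed1 #2 and 38.5, 33.8 and 31.6 CPM under shMed1 #4. Its groups overlapped, and its log2 fold change was 0.07 (95% interval -0.10 to 0.25, adjusted p = 0.54) with shMed1 #2 and 0.18 (95% interval 0.01 to 0.35, adjusted p = 0.12) with shMed1 #4. Without replicate 3 of shMed1 #4 the latter was 0.24 and passed (adjusted p = 0.0448). Psmb6 (ENSMUSG00000018286.6, chromosome 11, 70525367 to 70527858, plus strand), the caspase-like subunit, stood at 120.5, 117 and 119.6 CPM in the NTC libraries, 117, 125 and 115 CPM under shMed1 #2 and 118, 113 and 122 CPM under shMed1 #4. Its groups overlapped too, and the 95% interval of its log2 fold change was -0.11 to 0.10 with shMed1 #2 (adjusted p = 0.964) and -0.12 to 0.09 with shMed1 #4 (adjusted p = 0.865).

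Psmb7 (ENSMUSG00000026750.6, chromosome 2, 38588036 to 38644087, minus strand), the trypsin-like subunit, stood at 132, 130.03 and 143 CPM in the NTC libraries, 172, 180.3 and 172 CPM under shMed1 #2 and 171, 169.6 and 146 CPM under shMed1 #4. All 6 knockdown libraries were above the highest NTC library. Psmb7 rose by a log2 fold change of 0.37 (adjusted p = 3.28e-09, SE 0.0509) with shMed1 #2 and 0.26 (adjusted p = 2.59e-05, SE 0.0513) with shMed1 #4, and passed under every alternative run. Its exons share 405 bases with Nek6 on the other strand.

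**Figure D2:**
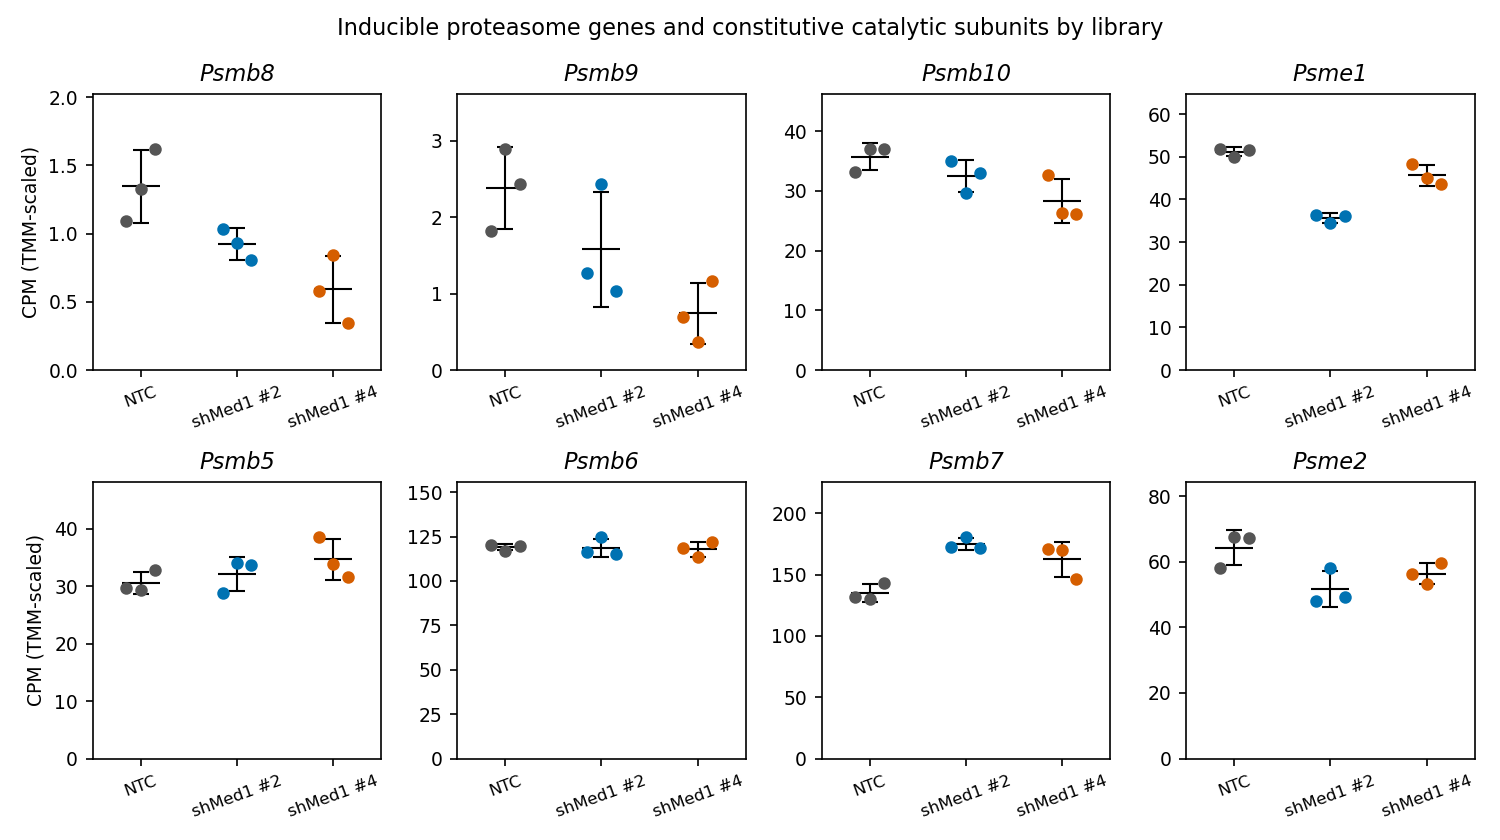
CPM of the inducible genes with their constitutive counterparts and of Psme1 and Psme2 in each of the 9 libraries. Each panel is a gene, each point a library and each axis starts at 0; Psmb8 and Psme1 lie lower in all 6 knockdown libraries than in NTC, Psmb7 lies higher, and Psmb5 and Psmb6 overlap.

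Each inducible gene was also set against its counterpart within a library, which removes library scaling. Values are inducible counts per 100 constitutive counts, both per kilobase of principal transcript, as mean ± SD (n = 3). Psmb8 to Psmb5 was 2.03, 2.4997 and 2.73 in NTC (2.42 ± 0.358), 1.99, 1.51 and 1.32 with shMed1 #2 (1.6 ± 0.345) and 0.834, 1.38 and 0.607 with shMed1 #4 (0.939 ± 0.395). All 6 knockdown libraries were under the lowest NTC ratio. In the closest pair, replicate 1 of NTC (2.03) and of shMed1 #2 (1.99), Psmb8 had 9 counts in each library. Those 2 ratios differ only through Psmb5 (245 and 250 counts), so the full separation is narrow. The mean log2 ratio differed by -1.02 (two-sided exact permutation test of 6 against 3 libraries, p = 0.0238, the smallest this design allows, and 0.0357 after adjustment over the 3 ratios).

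Psmb9 to Psmb6 was 0.891, 1.46 and 1.1999 in NTC (1.18 ± 0.284), 0.6403, 1.16 and 0.531 with shMed1 #2 (0.776 ± 0.333) and 0.348, 0.188 and 0.562 with shMed1 #4 (0.366 ± 0.188). Here 5 of 6 knockdown libraries were under the lowest NTC ratio, and the difference in mean log2 ratio was -1.23 (exact permutation p = 0.0476, adjusted 0.0476). Psmb10 to Psmb7 was 22.3, 25.2 and 22.9 in NTC (23.5 ± 1.52), 17.97, 14.5 and 16.97 with shMed1 #2 (16.5 ± 1.77) and 16.9, 13.7 and 15.9 with shMed1 #4 (15.5 ± 1.62). All 6 were under the lowest NTC ratio, and the difference was -0.56 (exact permutation p = 0.0238, adjusted 0.0357). This last ratio has a rising denominator, since Psmb7 itself rose. Each hairpin alone, at 3 against 3, has too few libraries for this test to pass and is given as values. The levels depend on which transcript sets the length (with all annotated exons Psmb10 to Psmb7 was 53.2 per 100 in NTC), but the differences between groups do not.

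**Figure D3:**
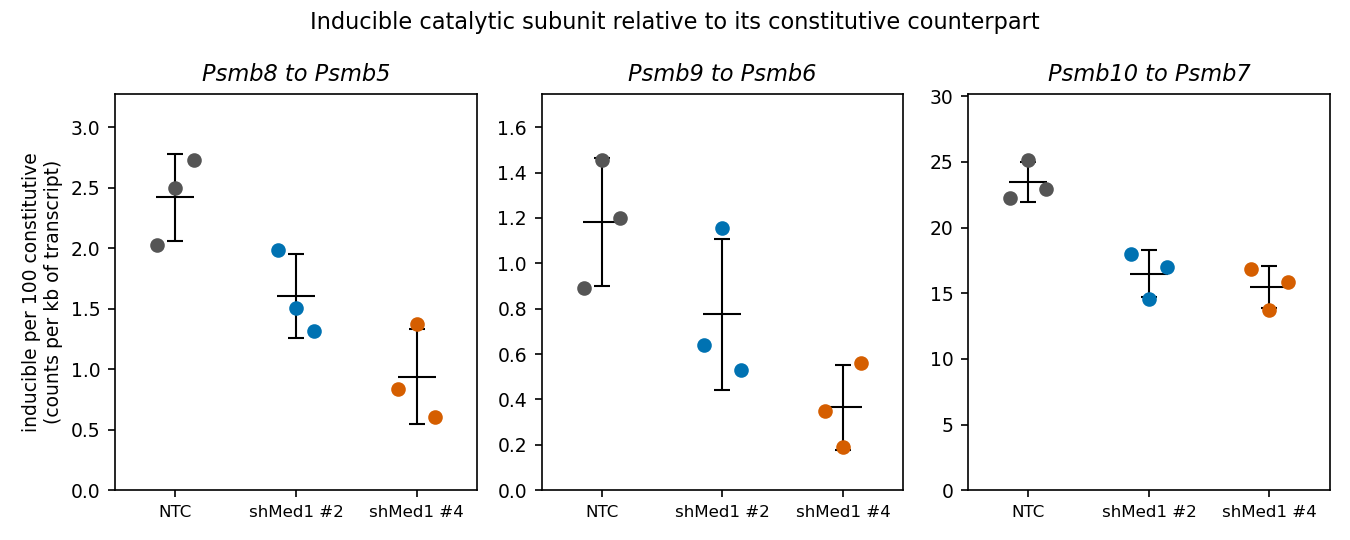
Inducible counts per 100 counts of the constitutive counterpart, per kilobase of transcript, by group. Points are libraries, the long bar is the mean and the whiskers are 1 SD (n = 3), each axis starts at 0, and the 6 knockdown libraries lie below NTC in all panels except 1 shMed1 #2 library for Psmb9 to Psmb6.

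Among the alpha subunits of the core, which form the outer gated rings, 3 of 7 rose with shMed1 #2 (Psma4, Psma6 and Psma7). That share (42.9%) was near the 40.8% of abundant genes (at least 6 log2 CPM) called higher with shMed1 #2. With shMed1 #4, 1 rose (Psma4) and 1 fell (Psma7), beside 27.3% higher and 16.3% lower of abundant genes. Psma4 stood at 138, 124 and 123 CPM in the NTC libraries, 145, 142 and 139 CPM under shMed1 #2 and 148, 150.4 and 134 CPM under shMed1 #4, with all shMed1 #2 libraries above NTC and shMed1 #4 overlapping it. Its log2 fold change was 0.15 (adjusted p = 0.0155, SE 0.0512) with shMed1 #2 and 0.17 (adjusted p = 0.00928, SE 0.0512) with shMed1 #4. Both calls were narrow: over the alternatives the adjusted p reached 0.116 for shMed1 #2 (library size alone), and 0.0787 for shMed1 #4 (without NTC replicate 3). They were also lost without NTC replicate 2 (0.0957 and 0.0721), and with upper quartile scaling (0.0601), without NTC replicate 3 (0.101) and without replicate 1 (0.0560) for shMed1 #2, and without replicate 1 (0.0555) or 2 (0.0731) for shMed1 #4.

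Psma7 was the only family member called in opposite directions by the hairpins, as were 0.867% of all tested genes. It stood at 164, 168 and 168 CPM in the NTC libraries, 185, 186 and 179.8 CPM under shMed1 #2 and 155, 160.1 and 135 CPM under shMed1 #4, so shMed1 #2 lay above NTC and shMed1 #4 below it with no overlap. The log2 fold change was 0.14 (adjusted p = 0.0138, SE 0.0484) with shMed1 #2 and -0.15 (adjusted p = 0.0132, SE 0.0494) with shMed1 #4. The decrease rested on replicate 3 of shMed1 #4, without which it was -0.08 (adjusted p = 0.243). The increase was lost with upper quartile scaling (adjusted p = 0.0571), with library size alone (adjusted p = 0.116) and without NTC replicate 1 (adjusted p = 0.0520), while the difference between hairpins, -0.29 (adjusted p = 1.28e-06), passed throughout. Of the 7 constitutive beta subunits, Psmb1 and Psmb7 rose with shMed1 #2 and Psmb7 alone with shMed1 #4. Those shares (28.6% and 14.3%) stood beside 40.8% and 27.3% of abundant genes called higher, differences that were not tested. The increases of Psma6 and Psmb1 with shMed1 #2 were lost without NTC replicate 2 (adjusted p = 0.0777 and 0.0716) and with library size alone (adjusted p = 0.0782 and 0.0517). That of Psma6 was also lost without replicate 2 of shMed1 #2 (adjusted p = 0.0738).

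The 19S ATPases, the ring that unfolds substrates, held the largest share of increases among the groups of the core and 19S. With shMed1 #2, 5 of 6 rose and with shMed1 #4, 3 rose, with median log2 fold changes of 0.22 and 0.14. Of abundant genes 40.8% rose with shMed1 #2 and 27.3% with shMed1 #4. The order of the groups rests on as few as 6 genes in a group and was not tested. Psmc3 stood at 168, 188 and 176 CPM in the NTC libraries, 245, 242 and 226 CPM under shMed1 #2 and 223, 208 and 225 CPM under shMed1 #4. Every knockdown library was above NTC, and its log2 fold change was 0.42 (adjusted p = 1.14e-12, SE 0.0464) with shMed1 #2 and 0.30 (adjusted p = 1.52e-07, SE 0.0468) with shMed1 #4. Its exons overlap Slc39a13 on the other strand by 215 bases.

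Psmc6 stood at 179, 171 and 171 CPM in the NTC libraries, 219.8, 238 and 223 CPM under shMed1 #2 and 202, 210.1 and 179 CPM under shMed1 #4, also without overlap. Its log2 fold change was 0.38 (adjusted p = 1.57e-10, SE 0.0478) with shMed1 #2 and 0.18 (adjusted p = 0.00233, SE 0.0484) with shMed1 #4. Psmc2 stood at 194, 193 and 197 CPM in the NTC libraries, 238, 246 and 226 CPM under shMed1 #2 and 219, 235 and 206 CPM under shMed1 #4, and its log2 fold change was 0.28 (adjusted p = 3.54e-07, SE 0.046) and 0.17 (adjusted p = 0.00226, SE 0.0463) in the same order. For both genes the knockdown libraries lay above NTC, but the call with shMed1 #4 was lost without that group's replicate 2 (adjusted p = 0.0518 for Psmc6 and 0.0577 for Psmc2). Psmc1 and Psmc5 passed with shMed1 #2 and not with shMed1 #4 (log2 fold changes 0.15 and 0.05 for Psmc1, 0.15 and 0.11 for Psmc5), and the difference between the hairpins did not pass either (adjusted p = 0.0937 and 0.517). The call of Psmc1 was lost without NTC replicate 2 (adjusted p = 0.0640) or replicate 2 of shMed1 #2 (adjusted p = 0.0544), and that of Psmc5 without NTC replicate 1 (adjusted p = 0.0634). Both were also lost with library size alone (adjusted p = 0.0596 for Psmc1 and 0.0656 for Psmc5). Psmc4 passed with neither.

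Of the 11 non-ATPase subunits of 19S, 8 rose with shMed1 #2 and 3 with shMed1 #4 (Psmd6, Psmd8 and Psmd12, all of the lid). Their median log2 fold changes were 0.14 and 0.07. The share with shMed1 #2 was 72.7%, beside 40.8% of abundant genes. With shMed1 #4 it was 27.3%, the same as for abundant genes (27.3%). Psmd6 stood at 86.7, 90.1 and 92.9 CPM in the NTC libraries, 119, 119.9 and 122 CPM under shMed1 #2 and 106, 109 and 95.8 CPM under shMed1 #4. On the log2 scale it changed by 0.42 (adjusted p = 2.91e-10, SE 0.0541) with shMed1 #2 and 0.21 (adjusted p = 0.00244, SE 0.0551) with shMed1 #4. Every knockdown library lay above NTC, and shMed1 #2 lay above shMed1 #4.

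Psmd12 stood at 156, 147 and 145 CPM in the NTC libraries, 188, 191 and 193 CPM under shMed1 #2 and 176, 181 and 165 CPM under shMed1 #4, with log2 fold changes of 0.35 (adjusted p = 1.14e-09, SE 0.0472) and 0.22 (adjusted p = 0.000167, SE 0.0477). Psmd8 stood at 179, 185 and 184 CPM in the NTC libraries, 214, 230.4 and 213 CPM under shMed1 #2 and 197, 215 and 212 CPM under shMed1 #4, with log2 fold changes of 0.26 (adjusted p = 1.22e-06, SE 0.0457) and 0.18 (adjusted p = 0.00103, SE 0.046). In both, all knockdown libraries were above the highest NTC library, and the calls held under every alternative run. Psmd7, the partner of the deubiquitinase Psmd14, stood at 259.6, 256 and 263 CPM in the NTC libraries, 306, 326 and 312 CPM under shMed1 #2 and 279, 269.8 and 261 CPM under shMed1 #4. It rose with shMed1 #2 by a log2 fold change of 0.28 (adjusted p = 6.05e-08, SE 0.0427), and its log2 fold change with shMed1 #4 was 0.06 (adjusted p = 0.37), with replicate 3 inside the NTC range. The smallest called increases with shMed1 #2 were Psmd3, at 0.11 (adjusted p = 0.0405), and Psmd14, at 0.13 (adjusted p = 0.0391). These calls were lost under 7 and 8 of 14 alternatives, with adjusted p up to 0.278 and 0.223 with library size alone, and among the left-out libraries up to 0.223 without NTC replicate 1 for Psmd3 and 0.153 without NTC replicate 3 for Psmd14. Psmd2, the scaffold that binds ubiquitin-like domains, and the ubiquitin receptor Psmd4 passed with neither hairpin.

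**Figure D4:**
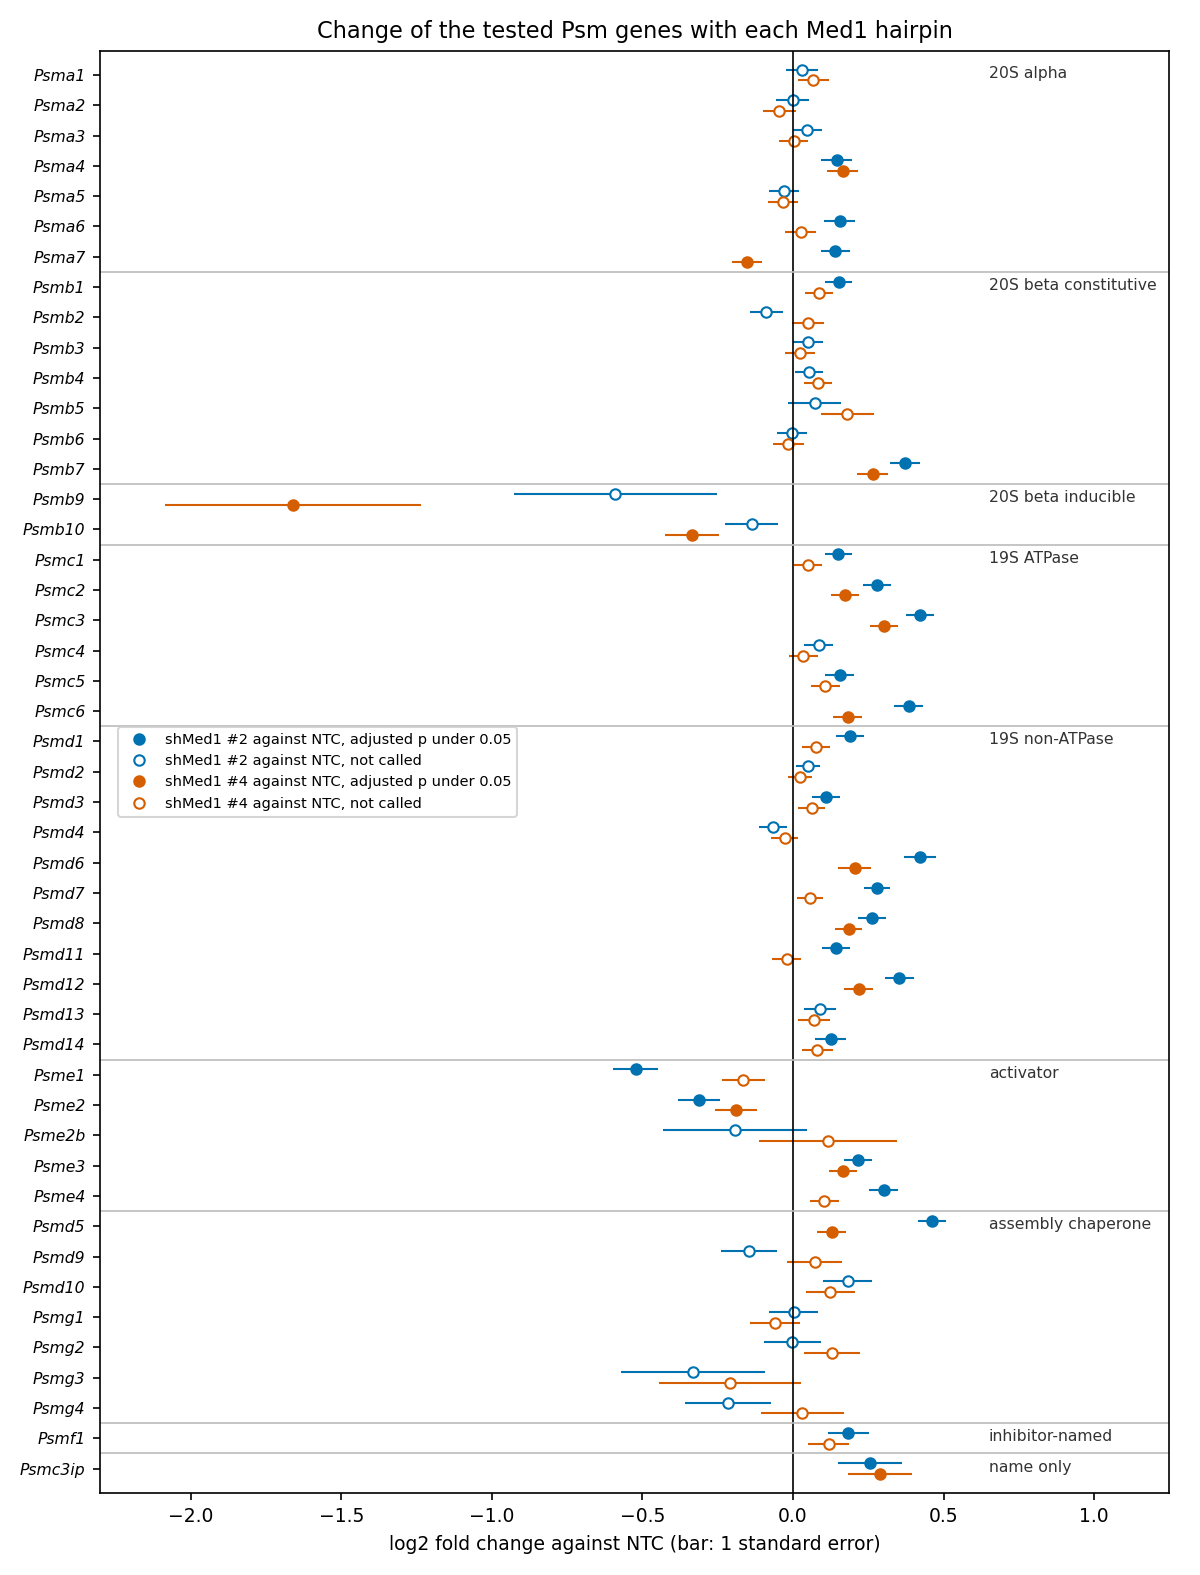
Log2 fold change against NTC for the 47 tested genes, grouped by role, for shMed1 #2 and shMed1 #4. Points are fitted values, bars are 1 standard error and filled points have an adjusted p under 0.05; the 19S genes lie mostly right of 0, and Psmb9, Psmb10, Psme1 and Psme2 lie left of it.

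Since several 19S genes moved together, the 250 bases before the RefSeq transcript start (GRCm38.p6) were searched on both strands for motifs of factors known to act on proteasome genes. Windows were found for 42 of the 50 genes and 32851 windows of that length were searched in all. The motif CCGGAAG, the core bound by ETS-family factors, was in 13 of the 42 genes (31.0%) and in 6.91% of all windows. Here and for the motifs below, a gene counts if any of its windows holds the motif. The share of all windows is counted per window, so the 2 shares are not in the same unit. Of the 11 genes higher with each hairpin, 9 had a window and 6 of those held it, against 7 of 31 among the other tested genes with a window. This split uses the calls of these same data. It was not tested, nor was any role of ETS factors in the changes. The sites of 5 of these genes are shown with the motif in capitals, because they are the members that moved with each hairpin:
Psmc2, chr5:21786713-21786739, minus strand: ctcttccccaCCGGAAGtagctccgcg
Psmc6, chr14:45329714-45329740, plus strand: ggcgggccagCCGGAAGgggcggagcc
Psmd6, chr14:14120974-14121000, minus strand: agagacgcgaCCGGAAGtcagactggc
Psmd12, chr11:107479501-107479527, minus strand: gtcactcgcaCCGGAAGtcgcccgctc
Psme3, chr11:101316096-101316122, plus strand: ggcacaaggcCCGGAAGctccgacagc
The sixth, Psmc3ip, is no proteasome subunit. Of the printed sites, that of Psmd12 lies past the annotated start of its gene (107479484). That of Psmc2 lies past the end of the longest exon-free stretch of its window (21786649). The last base of the Psmd6 motif is the first annotated base of that gene (14120984). These sites are thus not wholly upstream of annotated exons. TGACNNNGC, the core of the antioxidant response element bound by Nfe2l1 and Nfe2l2, was in 5 of the 42 genes (Psmb5, Psmb6, Psmc6, Psmd9 and Psmd12) and in 10.2% of all windows. CCAAT, bound by NF-Y, was in 15 genes and 33.8% of all windows, and TGACGTCA, the cyclic AMP response element, in 0 genes and 1.55% of windows. The match in Psmb5, shown as that of a constitutive catalytic gene, was
Psmb5, chr14:54618024-54618052, minus strand: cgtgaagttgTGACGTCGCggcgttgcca
No 2 matches of different motifs overlapped in the windows of the genes printed here. The stretch of the Psmc6 window that is free of annotated exons holds both kinds of match, TGACNNNGC on the minus strand first and CCGGAAG second, in capitals:
Psmc6, chr14:45329574-45329787, plus strand: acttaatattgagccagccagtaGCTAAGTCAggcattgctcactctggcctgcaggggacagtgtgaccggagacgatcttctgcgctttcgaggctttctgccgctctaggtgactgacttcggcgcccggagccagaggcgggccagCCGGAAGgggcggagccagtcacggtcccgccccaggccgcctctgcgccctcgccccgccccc

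Motifs of the interferon and inflammatory response were searched in the same windows. GAAA followed by any 2 bases and GAAA again, part of the interferon-stimulated response element, was in 3 of the 42 genes (Psmb3, Psmd4 and Psmd9) and 2.98% of all windows. TTCNNNGAA, bound by STAT factors, was in Psmb8 and Psmg1 and in 7.02% of all windows. GGGANNNCC, a form of the NF-kappaB site, was in 9 genes, Psme1 among the inducible ones, and in 15.8% of all windows. All 250 bases of the Psmb8 window lie in annotated exons of Psmb8, so its match lies in an exon. The Psmb8 match is shown in capitals as the only STAT-type match among the inducible genes:
Psmb8, chr17:34198088-34198116, plus strand: tcctccgctgTTCCCAGAAgatgcccccc
None of these 3 motifs had a match in the windows of Psmb9, Psmb10 and Psme2, and that of Psmb9 lies wholly in annotated exons of Psmb9 and Tap1. The exon-free stretch of the Psmb10 window, the inducible gene with the highest level of the 3, is printed without capitals since it holds no match:
Psmb10, chr8:105938445-105938642, minus strand: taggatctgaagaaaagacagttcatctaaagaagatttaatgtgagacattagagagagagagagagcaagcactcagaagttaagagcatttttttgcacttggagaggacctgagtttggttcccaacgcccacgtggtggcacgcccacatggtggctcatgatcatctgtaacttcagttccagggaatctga
A match is a run of letters, not a measured binding site, and its absence refers to this window only.

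Psme3 and Psme4, which encode other activators, rose with shMed1 #2. Psme3, the nuclear PA28 gamma, stood at 226, 224 and 219 CPM in the NTC libraries, 271, 258 and 248 CPM under shMed1 #2 and 265, 260.1 and 225 CPM under shMed1 #4, with shMed1 #2 above NTC and shMed1 #4 overlapping it through replicate 3. Its log2 fold change was 0.22 (adjusted p = 8.9e-05, SE 0.0469) with shMed1 #2 and 0.16 (adjusted p = 0.00468, SE 0.0471) with shMed1 #4, and the latter call was lost without replicate 1 of shMed1 #4 (adjusted p = 0.0835). Psme4, the large activator PA200, stood at 207, 194 and 189 CPM in the NTC libraries, 231, 249.98 and 246 CPM under shMed1 #2 and 209, 229 and 196 CPM under shMed1 #4, and rose with shMed1 #2 by 0.30 (adjusted p = 1.48e-07, SE 0.0474) on the log2 scale. With shMed1 #4 its log2 fold change was 0.10 (adjusted p = 0.102). The PA28 alpha and beta genes, Psme1 and Psme2, and the gamma gene Psme3 thus had opposite signs with both hairpins.

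Among the 7 assembly chaperones, 1 rose with each hairpin (14.3%, beside 10.4% of all tested genes). This was Psmd5, which holds the base of 19S during assembly. It stood at 147, 142 and 158 CPM in the NTC libraries, 216, 199.7 and 199 CPM under shMed1 #2 and 168, 162 and 158 CPM under shMed1 #4. All knockdown libraries were above NTC, in 1 case narrowly, and shMed1 #2 was above shMed1 #4. Its log2 fold change was 0.46 (adjusted p = 9.7e-14, SE 0.0477) with shMed1 #2, the largest increase in the family, and 0.13 (adjusted p = 0.0379, SE 0.0487) with shMed1 #4. The second call was lost under 8 of 14 alternatives, the highest adjusted p being 0.215 without NTC replicate 2. Psmd9, Psmd10 and Psmg1 to Psmg4 passed with neither hairpin, with log2 fold changes from -0.33 (Psmg3 with shMed1 #2) to 0.18 (Psmd10 with shMed1 #2).

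Psmf1, named as a proteasome inhibitor, rose with shMed1 #2 by 0.18 (adjusted p = 0.0233, SE 0.0684) on the log2 scale, a call lost under 5 of 14 alternatives (adjusted p up to 0.144, without NTC replicate 1). Its log2 fold change with shMed1 #4 was 0.12 (adjusted p = 0.207). The name rule also took Psmc3ip, a factor of meiotic recombination that is no proteasome subunit, at 17.9, 19.5 and 18.99 CPM in the NTC libraries, 24.5, 19.97 and 22.9 CPM under shMed1 #2 and 24.6, 23.8 and 20.6 CPM under shMed1 #4. It was called higher with each hairpin, at 0.26 (adjusted p = 0.0407) and 0.29 (adjusted p = 0.0292), calls lost under 9 and 5 of 14 alternatives, with adjusted p up to 0.200 without replicate 1 of shMed1 #2 and 0.138 without replicate 1 of shMed1 #4. Its exons share 385 bases with Mlx on the other strand.

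The hairpins differed from each other in 12 of the 47 genes: 10 were lower and 2 higher with shMed1 #4 than with shMed1 #2, beside 13.1% lower and 12.9% higher of all tested genes (26% in either direction). Among the constitutive genes 8 were lower and 1 was higher. The largest gaps below were Psmd5, at -0.33 (adjusted p = 1.81e-08, SE 0.0472), Psma7, at -0.29, and Psmd7, at -0.22 (adjusted p = 2.12e-05, SE 0.0425), on the log2 scale. Higher with shMed1 #4 were Psme1 and Psmb2, the latter by 0.14 (adjusted p = 0.0488, SE 0.0546), a call lost under 9 of 14 alternatives (adjusted p up to 0.249, without shMed1 #4 replicate 1). Psmb9 differed by -1.07 (adjusted p = 0.0537) and Psmb10 by -0.20 (adjusted p = 0.0972), and neither passed. With library size alone the split was 7 lower and 3 higher. Over all tested genes that setting gave 1459 lower and 2029 higher, beside 1782 and 1758 with TMM scaling.

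Genes that act with the proteasome under other names were counted in the same way. Of 16 such partners, 5 rose and 1 fell with shMed1 #2, and 2 rose and 1 fell with shMed1 #4 (median log2 fold changes 0.05 and 0.02). Over all tested genes, 21.8% were called higher and 21.9% lower with shMed1 #2, and 14% higher and 14.1% lower with shMed1 #4, so the share of partners called higher with shMed1 #4 was near that of all genes. The shuttle factor Ubqln1 had log2 fold changes of 0.12 (adjusted p = 0.0254) with shMed1 #2 and 0.13 (adjusted p = 0.0217) with shMed1 #4. Txnl1, a thioredoxin-like protein bound to 19S, had log2 fold changes of 0.14 (adjusted p = 0.0077) with shMed1 #2 and 0.12 (adjusted p = 0.0424) with shMed1 #4. Zfand2a, a stress-induced proteasome partner, had 0.39 (adjusted p = 7.67e-06) with shMed1 #2 and 0.18 (adjusted p = 0.0698) with shMed1 #4, and Zfand5, which stimulates the proteasome, had -0.14 (adjusted p = 0.038) with shMed1 #2 and -0.13 (adjusted p = 0.0827) with shMed1 #4.

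Of 11 tested genes in the transcriptional control of constitutive subunits, 2 rose and 4 fell with shMed1 #2, and 3 rose and 5 fell with shMed1 #4, beside 21.8% higher and 21.9% lower of all tested genes with shMed1 #2 and 14% and 14.1% with shMed1 #4. The share called higher with shMed1 #2 was near that of all genes. The small Maf genes, whose products pair with Nfe2l1 and Nfe2l2 on DNA, moved apart. Maff had log2 fold changes of 1.11 (adjusted p = 5.51e-17) with shMed1 #2 and 0.68 (adjusted p = 4.82e-08) with shMed1 #4, and Mafk had 0.52 (adjusted p = 3.18e-08) with shMed1 #2 and 0.28 (adjusted p = 0.00523) with shMed1 #4, while Mafg had -0.33 (adjusted p = 2.95e-08) with shMed1 #2 and -0.40 (adjusted p = 4.92e-10) with shMed1 #4. Syvn1, the ubiquitin ligase that acts on Nfe2l1 in the endoplasmic reticulum, had -0.87 (adjusted p = 9.84e-21) with shMed1 #2 and -0.51 (adjusted p = 8.81e-11) with shMed1 #4. Nfe2l1 itself, the factor that raises proteasome genes when the proteasome is impaired, averaged 401, 356 and 343 CPM in NTC, shMed1 #2 and shMed1 #4, with log2 fold changes of -0.17 (adjusted p = 0.000418) with shMed1 #2 and -0.22 (adjusted p = 9.84e-06) with shMed1 #4. It was named after its values were seen.

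Most tested genes of interferon signalling to the inducible subunits were called lower with shMed1 #2. Of 13, 8 fell and 1 rose with shMed1 #2, and 6 fell and 1 rose with shMed1 #4, where 21.9% and 14.1% of all tested genes were called lower. Irf9 had log2 fold changes of -1.23 (adjusted p = 2.46e-13) with shMed1 #2 and -1.26 (adjusted p = 3.54e-13) with shMed1 #4, and its partner Stat2 had -1.19 (adjusted p = 9.08e-13) with shMed1 #2 and -0.74 (adjusted p = 6.76e-07) with shMed1 #4. The type I receptor subunit Ifnar2 had -0.66 (adjusted p = 2.76e-10) with shMed1 #2 and -0.50 (adjusted p = 1.09e-06) with shMed1 #4, and the kinase Tyk2 had -0.58 (adjusted p = 4.66e-07) with shMed1 #2 and -0.51 (adjusted p = 1.58e-05) with shMed1 #4. The gene that rose with each was Jak2, at 0.30 (adjusted p = 0.00223) with shMed1 #2 and 0.32 (adjusted p = 0.00174) with shMed1 #4. Nlrc5, the activator of MHC class I and Psmb9 transcription, averaged 32.3, 29.4 and 13.6 CPM in NTC, shMed1 #2 and shMed1 #4, a log2 fold change of -0.13 (adjusted p = 0.249) with shMed1 #2 and -1.25 (adjusted p = 9.13e-17) with shMed1 #4, and the hairpins differed by -1.11 (adjusted p = 3.41e-14). Jak2 and Nlrc5 were named after their values were seen.

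Peptide transport and loading, the step after the proteasome, fell in 7 and rose in 2 of 11 genes with shMed1 #2, and fell in 9 and rose in 0 with shMed1 #4. Of all tested genes, 21.9% were called lower with shMed1 #2 and 14.1% with shMed1 #4. Tap2, a peptide transporter subunit, had log2 fold changes of -0.64 (adjusted p = 1.54e-06) with shMed1 #2 and -1.01 (adjusted p = 3.36e-11) with shMed1 #4. The chaperone Calr had log2 fold changes of -0.74 (adjusted p = 3.47e-31) with shMed1 #2 and -0.31 (adjusted p = 2.57e-11) with shMed1 #4. The loading-complex member Pdia3 had log2 fold changes of -0.56 (adjusted p = 5.87e-23) with shMed1 #2 and -0.28 (adjusted p = 1.82e-09) with shMed1 #4. Tap1, named after its values were seen because it overlaps Psmb9, averaged 12.6, 11.01 and 4.55 CPM in the same order of groups, a log2 fold change of -0.20 (adjusted p = 0.243) with shMed1 #2 and -1.47 (adjusted p = 7.89e-12) with shMed1 #4. Among the class I genes H2-D1 had -0.23 (adjusted p = 9.68e-06) with shMed1 #2 and -0.59 (adjusted p = 1.04e-18) with shMed1 #4, and B2m and H2-K1 rose with shMed1 #2 (0.55 and 0.21) and fell with shMed1 #4 (-0.19 and -0.51). B2m and H2-K1 were named after their values were seen.

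Ubiquitin supply and unfolding was mixed. Of 9 genes, 4 rose and 3 fell with shMed1 #2, and 2 rose and 1 fell with shMed1 #4, beside 43.7% and 28.2% of all tested genes called in either direction, so the share called with shMed1 #4 was near that of all genes. Ubb, which encodes polyubiquitin, had log2 fold changes of 0.27 (adjusted p = 1.3e-07) with shMed1 #2 and 0.13 (adjusted p = 0.0178) with shMed1 #4. Ufd1, an adaptor of the unfoldase Vcp, had 0.50 (adjusted p = 1.38e-12) with shMed1 #2 and 0.40 (adjusted p = 1.08e-08) with shMed1 #4, whereas Vcp itself had -0.27 (adjusted p = 1.49e-08) with shMed1 #2 and -0.29 (adjusted p = 5.69e-09) with shMed1 #4.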

How the data were processed

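The authors deposited raw counts per gene for 9 libraries of D2A1-d cells, run on a BGISEQ-500 instrument per the labels' protocols. STAR, HTSeq and the build GRCm38 (mm10) are named in the submitters' processing notes; which annotation release, tool versions and strand setting they used is not given in the sources used. Gene names came from GENCODE M21 on GRCm38 (55154 of 55335 identifiers matched without version, 54587 with it), and 4 Psm pseudogenes were left out. Each file holds 0 lines that name no gene.

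Counts were filtered by filterByExpr with the group as factor, leaving 13611 genes, scaled by TMM (factors 0.982 to 1.02), and tested with the quasi-likelihood test of edgeR (version 4.0.16 in R 4.3.3, with robust fitting and 1 coefficient per group over 9 libraries). Benjamini-Hochberg adjustment ran over all tested genes and a call is an adjusted p under 0.05. Fold changes are log2, with the standard error of the fit. CPM uses the TMM-scaled library size, and levels per kilobase use the principal transcript. Ratios of inducible to constitutive genes were compared with exact permutation tests (scipy 1.17.1). Intervals and count limits cover counting error or replicate spread only, since reads carry no molecular identifiers.

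The members, lists, motifs and tests were chosen with earlier results of these data known. Values are given in full for the 3 constitutive catalytic genes, the 5 inducible genes, those called in 1 direction with both hairpins and the 3 highest and lowest other called members of a comparison, and at most 4 genes from each further list, those called with both hairpins first; genes named beyond that are marked as such. Some genes of these lists are not reported by name here. Alternatives were scaling by RLE, by upper quartile or by library size alone, fits with no filter or at least 10 counts in 3 samples, DESeq2 1.42.0, only the groups compared, a replicate block, and each library left out in turn. The scripts were tested on simulated counts. Within groups, libraries differed beyond sampling noise (chi-square divided by its degrees of freedom was 1.51 to 2.40) and were counted as separate samples. Promoter windows and their sequences are from RefSeq, GRCm38.p6. Figures were drawn with matplotlib 3.10.9.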

Additional observations from a re-analysis of the deposited data

Results flagged for a closer look

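The hairpins differed from each other in 12 of the 47 tested proteasome genes, by edgeR's quasi-likelihood test of shMed1 #4 against shMed1 #2. In the same comparison 26% of all tested genes were called in either direction, so the number of members called is near that share. Values are log2, shMed1 #4 minus shMed1 #2. Psme1 was 0.36 and Psmb2 0.14. Below 0 were Psmd5 at -0.33, Psma7 at -0.29, Psmd7 and Psmd6 at -0.22 each, Psmc6 and Psme4 at -0.20 each, Psmd11 at -0.16, Psmd12 and Psma6 at -0.13 each, and Psmc3 at -0.12. In 7 of the 12 the call held under every alternative run, and it was lost under at least 1 for Psma6, Psmb2, Psmc3, Psmd11 and Psmd12. All shMed1 #4 libraries were above all shMed1 #2 libraries for Psme1, and below them for Psmd5, Psma7, Psmd7, Psmd6, Psmc6, Psme4, Psmd11, Psmd12 and Psmc3. The same separation was seen in members not called between the hairpins (Psmb7 below, and Psmd9, Psme2b and Psmg4 above). It was not counted over all tested genes and adds nothing to the calls.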

How the results depend on the processing

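Over the alternatives, 2726 values of tested members and comparisons were recomputed. None reversed direction among those called in the main fit or under the alternative. Changes of sign in values called in neither were not counted. Of the 2726 values, 1080 belonged to results called in the main fit, and 133 of these lost the call. Calls gained numbered 32. Calls that held under every alternative were 14 of 25 with shMed1 #2, 7 of 15 with shMed1 #4, 14 of 22 for the mean of both hairpins and 7 of 12 between the hairpins. With library size alone, the genes called with shMed1 #2 were 12 higher and 4 lower (23 and 2 as reported). Over all tested genes there were 2384 higher and 3598 lower (2964 and 2983 as reported). Members called with each hairpin were 8 higher and 2 lower. The split between the hairpins was 3 higher and 7 lower, beside 2029 and 1459 of all tested genes (1758 and 1782 as reported). Counts of all genes called with each hairpin are not given for these settings. Upper quartile scaling also gave 8 higher and 2 lower with each hairpin. DESeq2 gave 0 lower with each hairpin. The 2 genes higher with shMed1 #4 than with shMed1 #2 became 1 with RLE scaling, no filter, DESeq2, only the groups compared and the replicate block. In the same order, these settings gave 1732, 1572, 1231, 1679 and 1726 such genes among all tested. The causes of these changes were not tested.

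Leaving out 1 library at a time gave 17 to 21 higher and 2 to 3 lower genes with shMed1 #2, and 7 to 13 and 3 to 5 with shMed1 #4. It gave 14 to 20 and 3 to 5 for the mean of both hairpins, and 1 to 2 higher and 7 to 12 lower between the hairpins. Over all tested genes there were 2636 to 2793 higher and 2654 to 2756 lower with shMed1 #2, and 1569 to 1895 and 1591 to 1847 with shMed1 #4. For the mean there were 2245 to 2750 and 2316 to 2844, and between the hairpins 1376 to 1631 and 1441 to 1647. Called with each hairpin were 7 to 12 higher and 0 to 2 lower; the 7 came without replicate 1 or replicate 2 of shMed1 #4. The call of Psme2 with shMed1 #4 ended without NTC replicate 2 or 3 and without replicate 1 or 2 of shMed1 #4 (adjusted p 0.0802 to 0.165). The log2 ratio differences ran from -1.17 to -0.83 for Psmb8 to Psmb5, from -1.48 to -0.95 for Psmb9 to Psmb6 and from -0.59 to -0.51 for Psmb10 to Psmb7. These ranges are of the size of the difference. With any NTC library left out, too few libraries remain for the exact permutation test to pass, so no ratio call can hold there.

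Same-numbered replicates of different groups did not deviate together (correlations of deviations from -0.0589 to 0.0662), so the numbers were not taken as pairs. With a replicate block 23 genes rose and 2 fell with shMed1 #2, 11 rose and 4 fell with shMed1 #4, and 18 rose and 4 fell for the mean. With each hairpin 11 rose and 1 fell, and between the hairpins 1 was higher and 8 lower. Over all tested genes the block gave 2930 higher and 2962 lower with shMed1 #2, and 1879 and 1907 with shMed1 #4. For the mean it gave 2650 and 2733, and between the hairpins 1726 and 1735. The ratio differences were -1.02, -1.23 and -0.56 with replicate-matched values, as without.

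Psmb8 and Psmb9 rest on 3 to 24 counts a library, the lowest at the 3 counts that a count of 0 allows, and the intervals of their differences are wide.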
